A study of Mus musculus with 15 samples.

Results

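The motile cilium genes described here are 38 genes of the ciliary axoneme, its dynein motors, its assembly and its control. They were listed by symbol for their roles, with earlier results of these data known, and all array probes whose RefSeq accession led to one of the symbols were taken. The array carried 55 probes for 37 of the 38 genes, and no probe for Cdhr4, a cadherin of ciliated cells, was matched. Of these, 36 genes could be tested, out of 34401 genes (19289 with a symbol) tested in all. The exception was Rfx2, whose single probe was well above background on 9 of 15 arrays and did not reach that mark on all 3 arrays of any diet. RNA was taken from whole lungs of 15 mice, all females of the outbred stock Crlj:CD1(ICR), which were 11 weeks old and had eaten a powdered diet for 7 days. That diet contained 0 (control), 20, 500, 2500 or 5000 ppm permethrin, a pyrethroid insecticide, and 3 mice ate each of the 5 diets. Each array held the RNA of 1 mouse, so the replicates are separate animals.

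Motile cilia are beating, hair-like projections that cover the multiciliated cells of the airways and carry mucus out of the lung. Their core, the axoneme, is a ring of doublet microtubules around a central pair. Dynein arms on the doublets are the motors, the nexin-dynein regulatory complex and the radial spokes control them, and tektins and other inner proteins line the doublets. Multiciliated cells switch these genes on together through the transcription factors Foxj1, Rfx2 and Rfx3. Multiciliated cells are a small share of the cells of a whole lung and line its conducting airways. In RNA of a whole lung, fewer cells of a type and less RNA per cell cannot be told apart.

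Signals are given on the log2 scale relative to the 75th percentile of each array, so that 1 unit is a doubling and levels are not compared between probes. Differences carry their standard error (SE) from a limma model over all 15 arrays. A difference was called when its Benjamini-Hochberg adjusted p over all 34401 genes was under 0.05. Between 70.7% and 87.0% of the probes of an array were well above background, and no spot was saturated. Markers of lung (Sftpc, Sftpb, Ager, Scgb1a1 and Cldn18) were well above background on all 15 arrays. Of the 2 slides used, slide 1 carried every control and 20 ppm mouse with 500 ppm mice 1 and 2. Slide 2 carried 500 ppm mouse 3 and every mouse of the 2500 and 5000 ppm diets. Slide and diet therefore cannot be told apart between the 2 highest and the 2 lowest diets. On the leading principal component (36.5% of the variance) 500 ppm mouse 3 and 2500 ppm mouse 3 stood apart, the 2 arrays that the feature extraction software marked with a status of 1 in the file headers. On the next (17.9%) control mouse 1 and 20 ppm mouse 1 stood apart.

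Most of the 36 genes had their highest signal in 1 of 2 mice of the high diets. With each gene set to 0 at its own mean over the 15 arrays, their median was -0.18, -0.20 and -0.15 in the 3 control mice. It was -0.26, -0.10 and -0.37 at 20 ppm and -0.02, 0.21 and -0.11 at 500 ppm. At 2500 ppm it was 0.08, -0.04 and 0.64, and at 5000 ppm -0.18, 0.45 and 0.10. Thus 2500 ppm mouse 3 and 5000 ppm mouse 2 stood above every other mouse, while the lowest mouse of the 5000 ppm diet lay within the range of the controls. In 2500 ppm mouse 3, 33 of the 36 genes exceeded their own mean and 22 had their highest signal of the study. In 5000 ppm mouse 2 these counts were 35 and 8. The share of all genes with their highest signal in these mice was not counted. On the same measure the median of all genes was -0.21 in control mouse 1 and -0.26 in 20 ppm mouse 1, near that of the 36 genes there. It was 0.11 in 2500 ppm mouse 3, 0.04 in 5000 ppm mouse 2 and -0.05 to 0.12 in the other mice. The SD of the median between mice of 1 diet was 0.24.

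**Figure D1:**
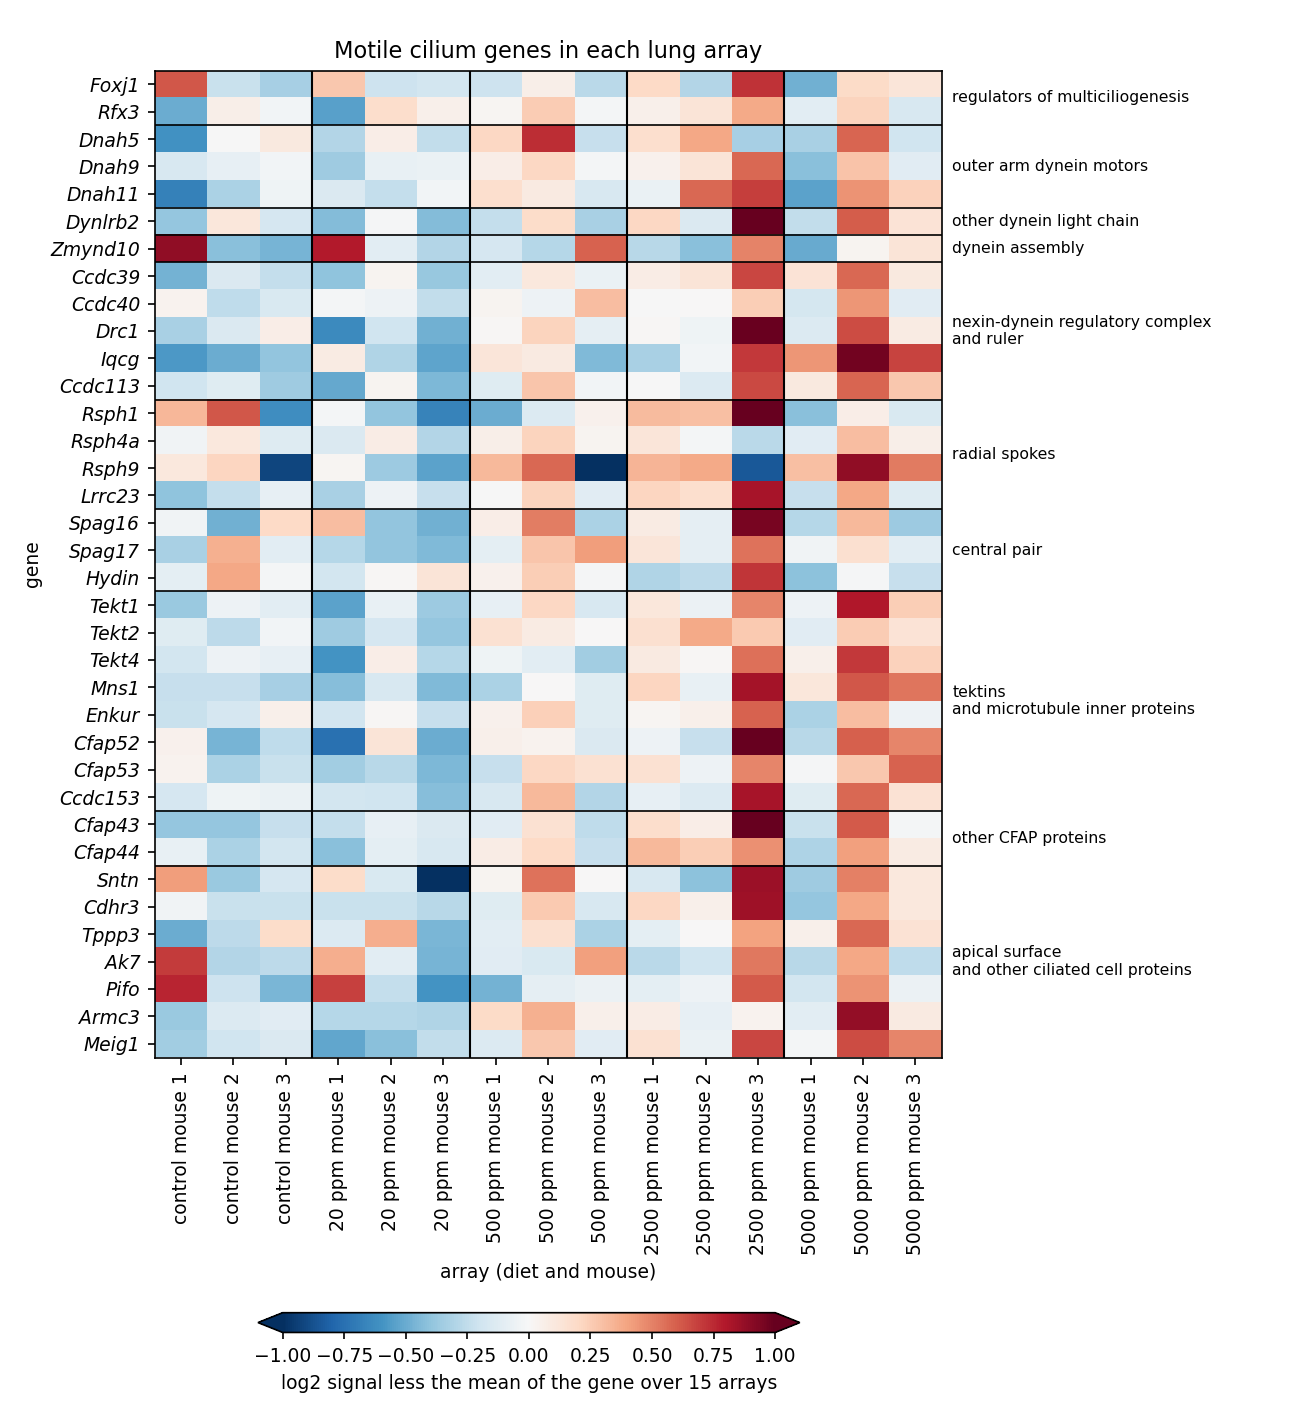
Signal of the 36 tested motile cilium genes (rows, ordered by role) in the 15 arrays (columns, ordered by diet), as log2 signal less the mean of the gene, red for higher and blue for lower, with colours saturating at differences of 1. The columns of 2500 ppm mouse 3 and 5000 ppm mouse 2 are red for 33 and 35 of the 36 genes.

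No motile cilium gene passed the threshold in any comparison, although most were higher at 2500 and 5000 ppm than in controls. At 2500 ppm the median log2 difference from control was 0.35 for the 36 genes and 0.05 for all genes. Of the 36 differences 32 were above 0, as were 57.3% over all genes. Limma called 0 of the 36, and 0% of all genes, at this diet. At an unadjusted p under 0.05, 10 were higher and 0 lower, against 5.52% and 2.97% of all genes. The 3 mice lay above all 3 controls for 12 of the 36, against 8.83% of all genes, namely Dnah9, Ccdc39, Iqcg, Lrrc23, Tekt2, Tekt4, Mns1, Cfap43, Cfap44, Cdhr3, Armc3 and Meig1. They lay below all controls for 0 of the 36 (4.73%).

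At 5000 ppm the median difference from control was 0.25 for the 36 genes and 0.07 for all genes, and 30 of the 36 were above 0 (60.6% over all genes). Limma called 0 of the 36 and 14 of all genes (0.0407%). Without an adjustment 8 were higher and 0 lower, against 3.04% and 2.10% of all genes. For 10 of the 36 the 3 mice lay above all 3 controls, against 12.9% of all genes, namely Ccdc39, Iqcg, Ccdc113, Rsph9, Tekt1, Tekt4, Mns1, Cfap43, Armc3 and Meig1. For 0 of the 36 they lay below (4.99%). Both high diets were set against the same 3 control mice, so their values are not independent. The 2 high diets were also set against each other. The median of 5000 against 2500 ppm was -0.07 (0.03 for all genes) and limma called 0 of 36 (0% of all genes). The sign of this median turned with the arrays included. It was 0.14 without 2500 ppm mouse 3, 0.05 without 5000 ppm mouse 1, -0.26 without 5000 ppm mouse 2 and 0.06 with array weights. Iqcg alone was higher and Rsph1 alone lower at an unadjusted p under 0.05 (1.78% and 3.26% of all genes). The mice did not overlap for Rsph1, which was lower at 5000 ppm (7.10% of all genes), and for 0 of the 36 in the other direction (8.15%).

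**Figure D2:**
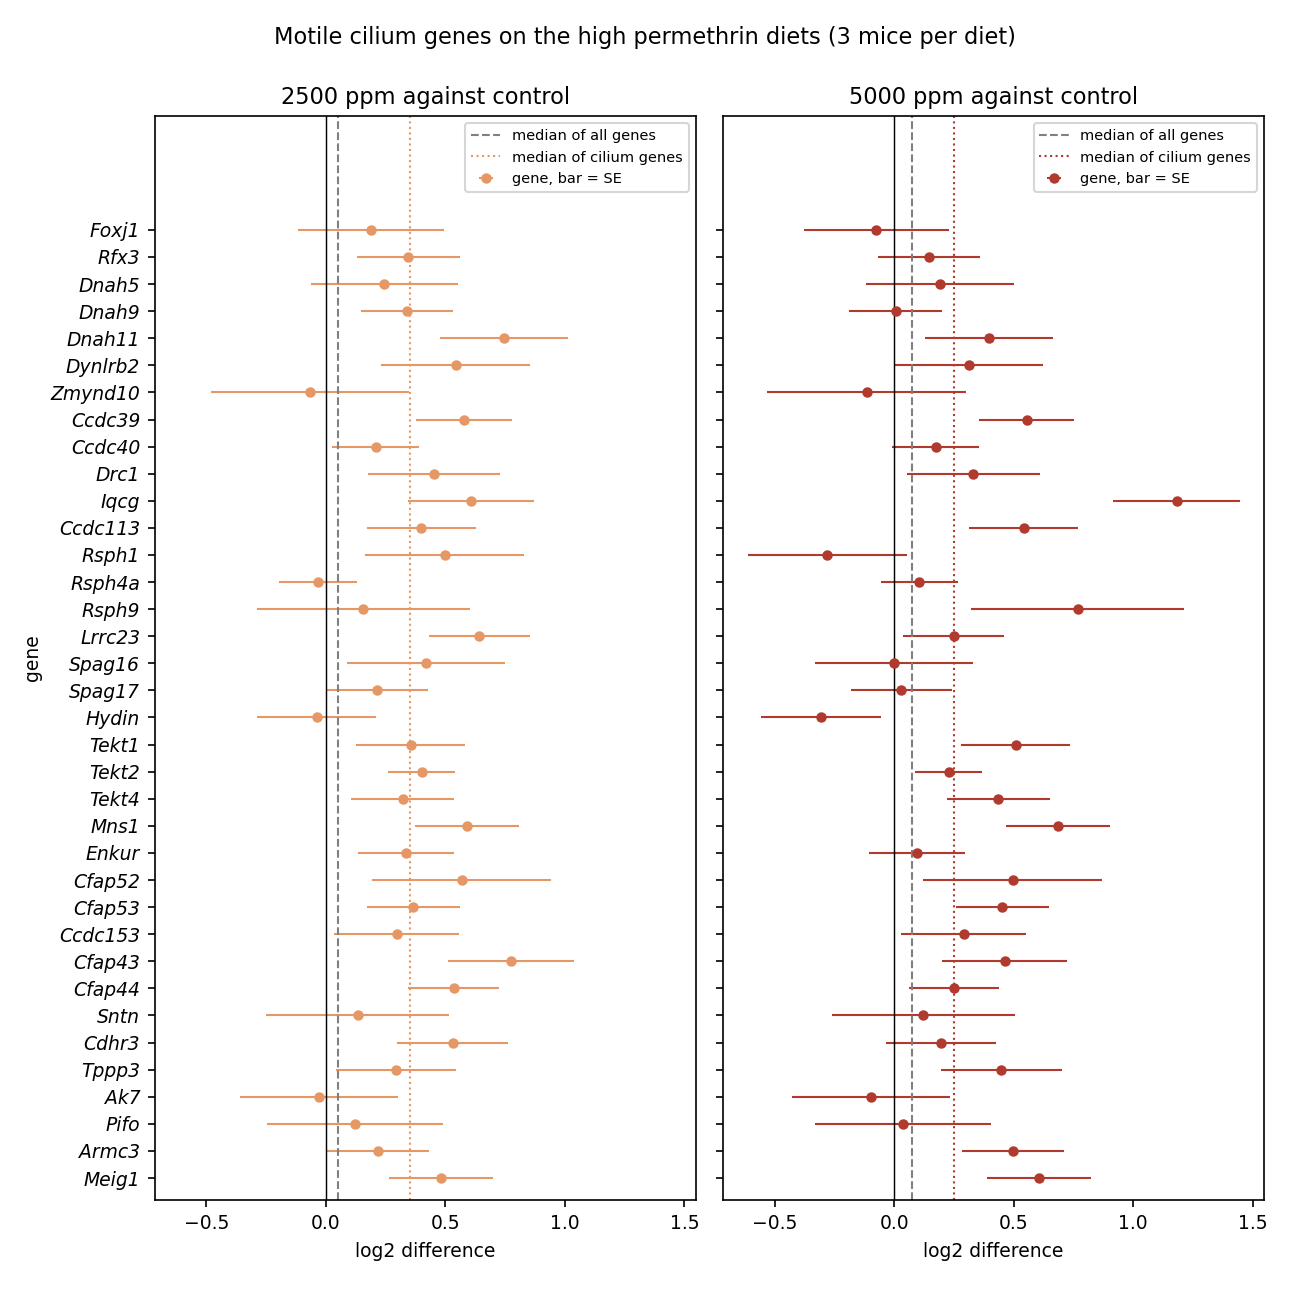
Log2 difference from control (x axis) of each tested motile cilium gene (y axis) at 2500 ppm (left) and 5000 ppm (right), with bars for the standard error. The dotted lines mark the medians of the cilium genes, 0.35 and 0.25, and the dashed lines those of all genes, 0.05 and 0.07. Of the 36 points, 32 lie to the right of 0 on the left and 30 on the right.

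On the scale of the 75th percentile the median of the 36 genes was below 0 at 20 ppm and above 0 at 500 ppm. At 20 ppm the median was -0.08 (-0.03 for all genes), with 10 of 36 above 0 (44.4% over all genes). Limma called 0 of the 36 and 0% of all genes there, and 0 had an unadjusted p under 0.05 (0.506% of all genes higher and 0.974% lower). All 3 mice lay below all 3 controls for Ccdc153 and Cdhr3 (4.35% of all genes), and for 0 of the 36 they lay above (1.50%). At 500 ppm the median was 0.19 against 0.12 for all genes, with 31 of 36 above 0 (70.4% over all genes). Here too, 0 of the 36 were called (0% of all genes) and 0 had an unadjusted p under 0.05 (2.05% higher, 0.788% lower). For 5 of the 36 the 500 ppm mice lay above all controls (4.53% of all genes), namely Dnah9, Ccdc39, Tekt2, Armc3 and Meig1, and for 0 below (2.16%). The scale moved the 500 ppm medians of the 36 genes and of all genes together. With the array median in place of the 75th percentile the median of the 36 was -0.04 and that of all genes -0.11. Against 20 ppm, the 500 ppm diet had a median of 0.23 (0.13 for all genes), with 32 of 36 above 0 (72.1% over all genes) and 0 of 36 called by limma (0%). At an unadjusted p under 0.05, 0 were lower (0.907%) and 3 higher (4.29%), namely Spag17 (0.57 ± 0.21), Tekt2 (0.39 ± 0.14) and Armc3 (0.49 ± 0.21). All 500 ppm mice lay above all 20 ppm mice for 8 of the 36 (7.61% of all genes) and below for 0 (3.2%). On the array median scale this median was -0.02, with all genes at -0.12.

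Iqcg had the largest difference of the 36 genes. It encodes a calmodulin-binding subunit of the nexin-dynein regulatory complex, which links neighbouring doublets. Its signal was 1.02, 1.10 and 1.20 in controls and 1.68, 1.30 and 1.07 at 20 ppm. At 500 ppm it was 1.72, 1.68 and 1.16, at 2500 ppm 1.27, 1.57 and 2.30, and at 5000 ppm 2.04, 2.56 and 2.27. The 5000 ppm mice lay above every mouse of the control, 20 ppm and 500 ppm diets, and 2500 ppm mouse 3 lay among them. Against control the log2 difference at 5000 ppm was 1.18 ± 0.26 (SE), a 2.27-fold higher signal with an adjusted p of 0.29. This difference kept its size without any 1 array (1.05 to 1.31). Limma called it with array weights (1.13, adjusted p = 0.0188), without the 2 arrays of extraction status 1 (1.18, adjusted p = 0.0492) and with slide as a fixed block (1.73, adjusted p = 0.0233). These settings called 0.276%, 0.0959% and 14.4% of all genes. Its adjusted p was 0.0188 to 1 over all settings tried.

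The other genes grouped here with this complex and the molecular ruler that sets its spacing also had higher signals on both high diets. None passed the threshold. With Iqcg, all 5 had differences above 0 at 2500 ppm (median 0.45) and at 5000 ppm (median 0.54). Ccdc39, which forms the ruler with Ccdc40, measured -1.81, -1.49 and -1.58 in controls and -1.74, -1.31 and -1.71 at 20 ppm. It measured -1.45, -1.24 and -1.40 at 500 ppm, -1.26, -1.21 and -0.67 at 2500 ppm and -1.20, -0.77 and -1.24 at 5000 ppm. All 6 mice of the high diets lay above all 6 of the control and 20 ppm diets. The differences from control were 0.58 ± 0.20 and 0.55 ± 0.20 (SE) at 2500 and 5000 ppm, with adjusted p of 0.381 and 0.888. Its partner Ccdc40 differed by 0.21 ± 0.18 and 0.17 ± 0.18. Drc1, the scaffold of the regulatory complex, was at 0.45 ± 0.28 and 0.33 ± 0.28, and Ccdc113 at 0.40 ± 0.23 and 0.54 ± 0.23.

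Of the regulators of multiciliogenesis, Foxj1 had differences smaller than its spread between mice, and those of Rfx3 depended on the probe. Foxj1, the forkhead factor that switches on motile cilium genes, measured 1.77, 0.94 and 0.82 in controls and 1.43, 0.95 and 0.98 at 20 ppm. It measured 0.95, 1.22 and 0.89 at 500 ppm, 1.35, 0.86 and 1.88 at 2500 ppm and 0.68, 1.35 and 1.28 at 5000 ppm. High and low mice occurred in the control and in both high diets, and the groups overlapped. Its differences from control were 0.19 ± 0.30 at 2500 ppm and -0.07 ± 0.30 at 5000 ppm (adjusted p = 0.954 and 0.984). The sign at 5000 ppm rested on control mouse 1, without which it was 0.22.

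Rfx3, an RFX factor that binds the X-box of cilium gene promoters, measured -0.53, 0.02 and -0.06 in controls and -0.57, 0.14 and 0.02 at 20 ppm. At 500 ppm it measured -0.01, 0.22 and -0.05, at 2500 ppm 0.02, 0.10 and 0.35, and at 5000 ppm -0.14, 0.19 and -0.19. Only control mouse 1 and 20 ppm mouse 1 stood clearly apart, both low. Differences from control were 0.35 ± 0.21 and 0.15 ± 0.21 at 2500 and 5000 ppm (adjusted p = 0.743 and 0.970). A second, dimmer Rfx3 probe, well above background on 12 of 15 arrays, gave larger differences of 0.74 and 0.82. The probe of Rfx2, the related factor that was not tested, read -3.57, -5.90 and -4.57 in controls and -3.24, -4.14 and -5.80 at 20 ppm. It read -4.56, -4.69 and -4.39 at 500 ppm, -4.11, -4.92 and -4.13 at 2500 ppm and -4.81, -4.17 and -4.65 at 5000 ppm. No fold is given for this probe, which did not pass the filter.

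Outer arm dynein heavy chains, the motors of the ciliary beat, had median differences from control of 0.34 at 2500 ppm and 0.19 at 5000 ppm. Dnah11, the heavy chain of the proximal cilium, had the second largest difference at 2500 ppm. It measured -0.88, -0.52 and -0.25 in controls and -0.35, -0.45 and -0.23 at 20 ppm. It measured -0.04, -0.12 and -0.37 at 500 ppm, -0.27, 0.37 and 0.49 at 2500 ppm and -0.74, 0.24 and 0.03 at 5000 ppm. At 2500 ppm 2 mice exceeded all controls and mouse 1 lay within their range, and at 5000 ppm the lowest mouse was among the lowest of the study. The differences were 0.75 ± 0.27 and 0.39 ± 0.27 (adjusted p = 0.406 and 0.967). Dnah9, of the distal cilium, differed by 0.34 ± 0.19 and 0.01 ± 0.19, and Dnah5 by 0.24 ± 0.31 and 0.19 ± 0.31. Dynlrb2, a roadblock light chain of dynein, differed by 0.54 ± 0.31 and 0.31 ± 0.31.

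Zmynd10, a cytoplasmic factor needed to assemble dynein arms, was 1 of the 4 genes with a difference below 0 at 2500 ppm. It measured -0.15, -1.46 and -1.50 in controls and -0.24, -1.14 and -1.33 at 20 ppm. At 500 ppm it measured -1.20, -1.32 and -0.44, at 2500 ppm -1.32, -1.45 and -0.54 and at 5000 ppm -1.54, -1.01 and -0.91. Control mouse 1, 20 ppm mouse 1, 500 ppm mouse 3 and 2500 ppm mouse 3 were high, which are the 4 arrays set apart on the principal components. Differences were -0.07 ± 0.41 at 2500 ppm and -0.12 ± 0.41 at 5000 ppm, and became 0.09 and 0.33 without those 4 arrays.

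Radial spokes carry signals from the central pair to the dynein arms, and their 4 genes differed from each other. Lrrc23, a spoke protein, had the smallest adjusted p of the 36 genes at 2500 ppm. It measured 1.66, 1.83 and 1.98 in controls and 1.74, 2.02 and 1.83 at 20 ppm. It measured 2.06, 2.29 and 1.95 at 500 ppm, 2.28, 2.23 and 2.89 at 2500 ppm and 1.83, 2.45 and 1.94 at 5000 ppm. All 3 mice at 2500 ppm lay above all controls, whereas 2 of those at 5000 ppm lay within the control range. The difference at 2500 ppm was 0.64 ± 0.21 (1.56-fold, adjusted p = 0.361), and 0.25 ± 0.21 at 5000 ppm (adjusted p = 0.968).

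Rsph9, a protein of the spoke head, varied most between mice of 1 diet (SD 0.59). It measured 2.04, 2.15 and 1.02 in controls and 1.96, 1.57 and 1.40 at 20 ppm. It measured 2.26, 2.52 and 0.94 at 500 ppm, 2.28, 2.31 and 1.09 at 2500 ppm and 2.24, 2.82 and 2.46 at 5000 ppm. Control mouse 3, 500 ppm mouse 3 and 2500 ppm mouse 3 were low and every mouse at 5000 ppm exceeded every control. The difference at 5000 ppm was 0.77 ± 0.44 (1.70-fold, adjusted p = 0.964), and 0.41 without control mouse 3. The other Rsph9 probe gave -0.19 at 5000 ppm, so the probes disagreed in sign. It was called only with slide as a fixed block (2.22, adjusted p = 0.0365), a setting that called 14.4% of all genes and in which the slide term rests on the single low array of 500 ppm mouse 3.

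Rsph1, a second spoke head protein, measured 2.06, 2.35 and 1.10 in controls and 1.70, 1.33 and 1.06 at 20 ppm. It measured 1.23, 1.58 and 1.77 at 500 ppm, 2.04, 2.02 and 2.94 at 2500 ppm and 1.30, 1.79 and 1.57 at 5000 ppm. The 5000 ppm mice lay below the 2500 ppm mice and within the range of the controls. Differences from control were 0.50 ± 0.33 at 2500 ppm and -0.28 ± 0.33 at 5000 ppm, and 5000 against 2500 ppm gave -0.78 ± 0.33 (adjusted p = 0.963). Without any 1 array the difference at 5000 ppm ran from -0.65 to -0.03. Rsph4a, also of the spoke head, measured -0.96, -0.82 and -1.06 in controls and -1.07, -0.85 and -1.22 at 20 ppm. It measured -0.87, -0.71 and -0.90 at 500 ppm, -0.81, -0.95 and -1.20 at 2500 ppm and -1.04, -0.62 and -0.87 at 5000 ppm. Its groups overlapped throughout, with differences of -0.03 ± 0.16 and 0.11 ± 0.16.

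Of the central pair genes, Hydin had the lowest difference of all 36 at 5000 ppm. Hydin, a very large protein of the central pair projections, measured -0.77, -0.29 and -0.69 in controls and -0.86, -0.66 and -0.55 at 20 ppm. It measured -0.63, -0.43 and -0.69 at 500 ppm, -0.97, -0.94 and 0.04 at 2500 ppm and -1.08, -0.68 and -0.90 at 5000 ppm. The groups overlapped, with 2500 ppm mouse 3 above every other mouse and 5000 ppm mouse 2 within the range of the controls. The differences were -0.04 ± 0.25 at 2500 ppm and -0.31 ± 0.25 at 5000 ppm (adjusted p = 0.992 and 0.967). Without any 1 array the latter ran from -0.41 to -0.16. A second, dimmer Hydin probe gave 0.44 and 0.02, so the probes of this gene disagreed in sign. Spag16 and Spag17, the other central pair genes, differed by 0.42 ± 0.33 and 0.22 ± 0.21 at 2500 ppm, and by -0.00 ± 0.33 and 0.03 ± 0.21 at 5000 ppm.

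A group of 8 genes, most of them tektins and microtubule inner proteins, had differences above 0 throughout on both high diets, with medians of 0.36 and 0.44. Mns1, an inner protein of the doublets, measured 1.33, 1.33 and 1.23 in controls and 1.13, 1.40 and 1.12 at 20 ppm. It measured 1.24, 1.56 and 1.43 at 500 ppm, 1.77, 1.48 and 2.39 at 2500 ppm and 1.67, 2.18 and 2.09 at 5000 ppm. All 6 mice of the high diets lay above all 6 of the control and 20 ppm diets. Differences from control were 0.59 ± 0.22 and 0.69 ± 0.22 (1.50-fold and 1.61-fold, adjusted p = 0.427 and 0.771).

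Tekt2, a tektin filament protein, had the smallest spread within a diet (SD 0.13). It measured 0.68, 0.54 and 0.78 in controls and 0.44, 0.63 and 0.41 at 20 ppm. It measured 0.95, 0.89 and 0.81 at 500 ppm, 0.96, 1.18 and 1.06 at 2500 ppm and 0.69, 1.06 and 0.94 at 5000 ppm. Every mouse at 500 and 2500 ppm exceeded every control, and 1 mouse at 5000 ppm did not. Differences were 0.40 ± 0.14 and 0.23 ± 0.14 at 2500 and 5000 ppm (adjusted p = 0.386 and 0.967). Tekt1 differed by 0.36 ± 0.23 and 0.51 ± 0.23, and Tekt4 by 0.32 ± 0.22 and 0.44 ± 0.22. The other 4, Enkur, Cfap52, Cfap53 and Ccdc153, ranged from 0.30 to 0.57 at 2500 ppm and from 0.10 to 0.50 at 5000 ppm.

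Cfap43 had the largest difference at 2500 ppm. With Cfap44 it belongs to a tether of an inner arm dynein. It measured 1.49, 1.49 and 1.65 in controls and 1.64, 1.80 and 1.74 at 20 ppm. It measured 1.77, 2.03 and 1.63 at 500 ppm, 2.06, 1.95 and 2.95 at 2500 ppm and 1.66, 2.50 and 1.86 at 5000 ppm. All mice of both high diets lay above all controls, 5000 ppm mouse 1 by the narrowest margin. The differences were 0.77 ± 0.26 (1.71-fold) and 0.46 ± 0.26 (adjusted p = 0.376 and 0.964), and 0.46 at 2500 ppm without mouse 3. Cfap44 differed by 0.53 ± 0.19 and 0.25 ± 0.19.

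Among the apical and other ciliated cell proteins, Meig1 and Armc3 lay above all controls in every mouse of the high diets. Meig1, known from sperm formation, measured 1.42, 1.57 and 1.62 in controls and 1.25, 1.36 and 1.52 at 20 ppm. It measured 1.63, 2.04 and 1.66 at 500 ppm, 1.92, 1.70 and 2.44 at 2500 ppm and 1.75, 2.42 and 2.26 at 5000 ppm. Its 9 mice on 500 ppm or more all exceeded its 6 mice on less. The lowest of the 9 read 1.63 and the highest of the 6 read 1.62. This split was seen in the values, and the share of all genes that meet it was not counted. Differences from control were 0.48 ± 0.22 and 0.61 ± 0.22 (adjusted p = 0.577 and 0.888).

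Ak7, an adenylate kinase of cilia, measured -2.69, -3.68 and -3.65 in controls and -3.02, -3.49 and -3.85 at 20 ppm. It measured -3.50, -3.54 and -2.98 at 500 ppm, -3.66, -3.58 and -2.86 at 2500 ppm and -3.66, -3.0 and -3.64 at 5000 ppm. Its high readings came from control mouse 1, 20 ppm mouse 1, 500 ppm mouse 3, 2500 ppm mouse 3 and 5000 ppm mouse 2, and its differences were -0.03 ± 0.33 and -0.10 ± 0.33. Sntn, of the cilium tip, Pifo, Cdhr3, the rhinovirus C receptor, Tppp3, a tubulin-binding protein, and Armc3 had differences above 0. They ranged from 0.12 to 0.53 at 2500 ppm and from 0.04 to 0.50 at 5000 ppm. The second probe of Pifo gave -0.18 on both diets, and that of Tppp3 gave -0.05 and 0.01.

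**Figure D3:**
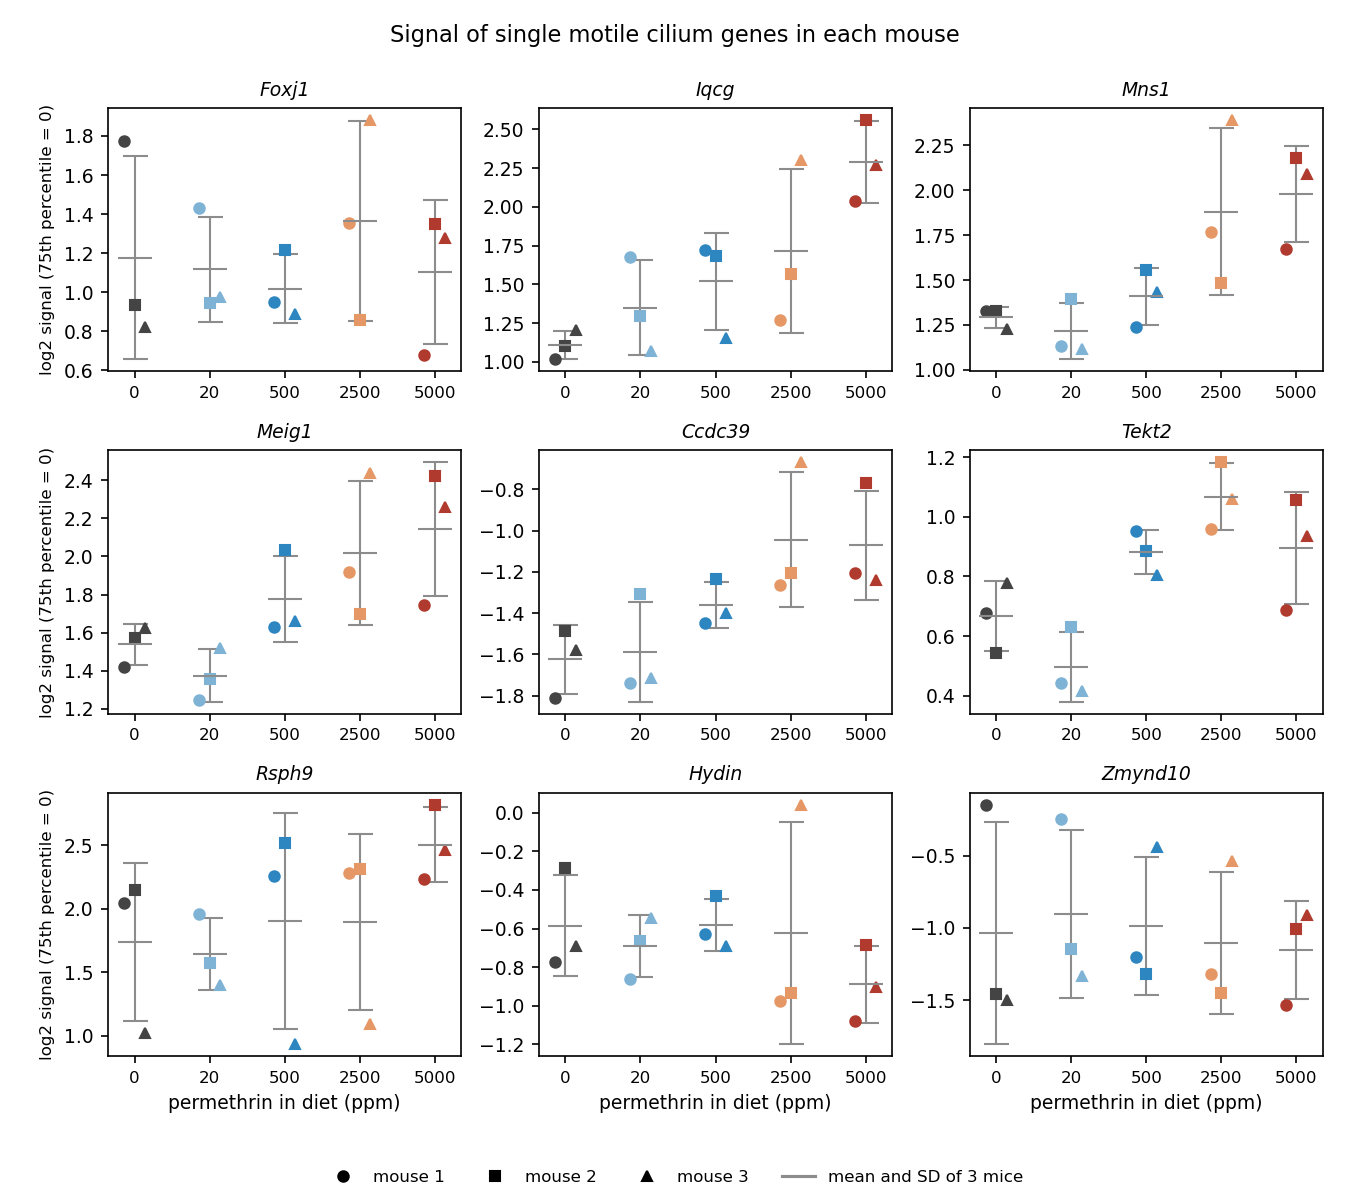
Log2 signal relative to the 75th percentile of the array (y axis) of 9 motile cilium genes in each mouse by permethrin content of the diet (x axis, ppm, diets evenly spaced). Circles, squares and triangles are mouse 1, 2 and 3 of a diet, and grey bars give the mean and SD of 3 mice. Iqcg, Mns1, Meig1 and Ccdc39 are higher on the high diets, Foxj1 and Zmynd10 follow single mice, and the 5000 ppm mice exceed all controls for Iqcg (lowest 2.04) and Rsph9 (lowest 2.24).

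Setting the 6 mice of the 2 highest diets against the 6 mice of the 2 lowest joined both high diets in 1 comparison. The median difference was 0.40 for the 36 genes and 0.09 for all genes, and 33 of 36 were above 0 (64.7% over all genes). Limma called 0 of the 36 and 75 of all genes (0.218%). At an unadjusted p under 0.05, 18 were higher and 0 lower, against 6.94% and 4.14% of all genes. For Ccdc39, Mns1, Armc3 and Meig1 all 6 mice lay above all 6 others (0.977% of all genes), and for 0 below (0.555%). The smallest adjusted p belonged to Mns1 (0.68 ± 0.15, adjusted p = 0.129), Iqcg (0.77 ± 0.19, adjusted p = 0.156) and Meig1 (0.62 ± 0.15, adjusted p = 0.165). With array weights limma called Iqcg (0.67), Mns1 (0.55) and Tekt2 (0.36), together with 2.96% of all genes. These 2 sets of mice lay on different slides, so slide and diet cannot be told apart here. Over the 5 dose ranks the median slope was 0.11 per rank (0.03 for all genes), with 33 of 36 above 0 (64.0% over all genes). Of the 36 slopes limma called 0, and 49 of all genes (0.142%), while 15 of 36 were higher (5.77%) and 0 lower (3.45%) at an unadjusted p under 0.05. The smallest adjusted p was that of Iqcg (0.27 ± 0.06 per rank, adjusted p = 0.133). Limma's F test over the 5 diets called 0 of 36 (0.0407% of all genes) and gave 6 an unadjusted p under 0.05 (5.35%).

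Within slide 1 the 2 mice at 500 ppm could be set against control and 20 ppm mice of the same slide. Their median over the 36 genes was 0.24 above control (0.02 for all genes) with 31 of 36 above 0, and 0.31 above 20 ppm (0.05 for all genes). In both, limma called 0 of 36. At an unadjusted p under 0.05, 3 and 4 of the 36 were higher and none lower, while 4.17% and 3.19% of all genes passed in either direction. Within slide 2, 5000 against 2500 ppm had a median of -0.07 and 0 of 36 called. With slide as a random block the medians at 2500 and 5000 ppm were 0.42 and 0.38, with all genes at -0.07 and -0.05.

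The 2 mice with the highest cilium signals also had high signals for markers of other airway cells. They were picked for their cilium signals after the data were seen, so smaller differences without them follow from the choice. Without 2500 ppm mouse 3 and 5000 ppm mouse 2 the median at 2500 ppm was 0.18 (-0.01 for all genes) with 29 of 36 above 0. At 5000 ppm it was then 0.08 (0.06 for all genes) with 22 of 36 above 0, and the 6 against 6 comparison became 4 against 6 with a median of 0.20. Iqcg kept a difference of 1.05 at 5000 ppm. In these 2 mice the median of airway basal cell markers was 1.74 and 0.67 above their means, against -0.56 to 0.30 in the other 13 mice. All 8 basal markers were tested and among them Krt5 measured 0.97 and -0.71 in the 2 mice and at most -2.05 elsewhere.

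Club cell markers (16 of 16 tested) had medians of 0.50 and 0.58 in the 2 mice, against -0.32 to 0.20 elsewhere. Cartilage markers (8 of 11 tested) were at 0.90 and 0.69, against -0.54 to 0.46 in 12 mice and 1.03 in 500 ppm mouse 3. Airway smooth muscle markers (8 of 8 tested) were at 1.01 and 0.37, against -0.64 to 0.13 elsewhere. Goblet and neuroendocrine markers (8 of 9 tested) were at 0.88 and 0.56, against -0.40 to 0.45. Cardiac muscle markers of pulmonary veins were at 1.785 and 1.099, against -2.858 to 1.096 elsewhere. Endothelial markers were at -0.32 and -0.21, and alveolar type 2 markers at -0.30 and 0.10. The defining markers Krt5, Trp63, Scgb1a1 and Acta2 were well above background on all 15 arrays, and Trp63 stayed between 2.96 and 3.40. The part of airway tissue content in the differences of the cilium genes was not tested.

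**Figure D4:**
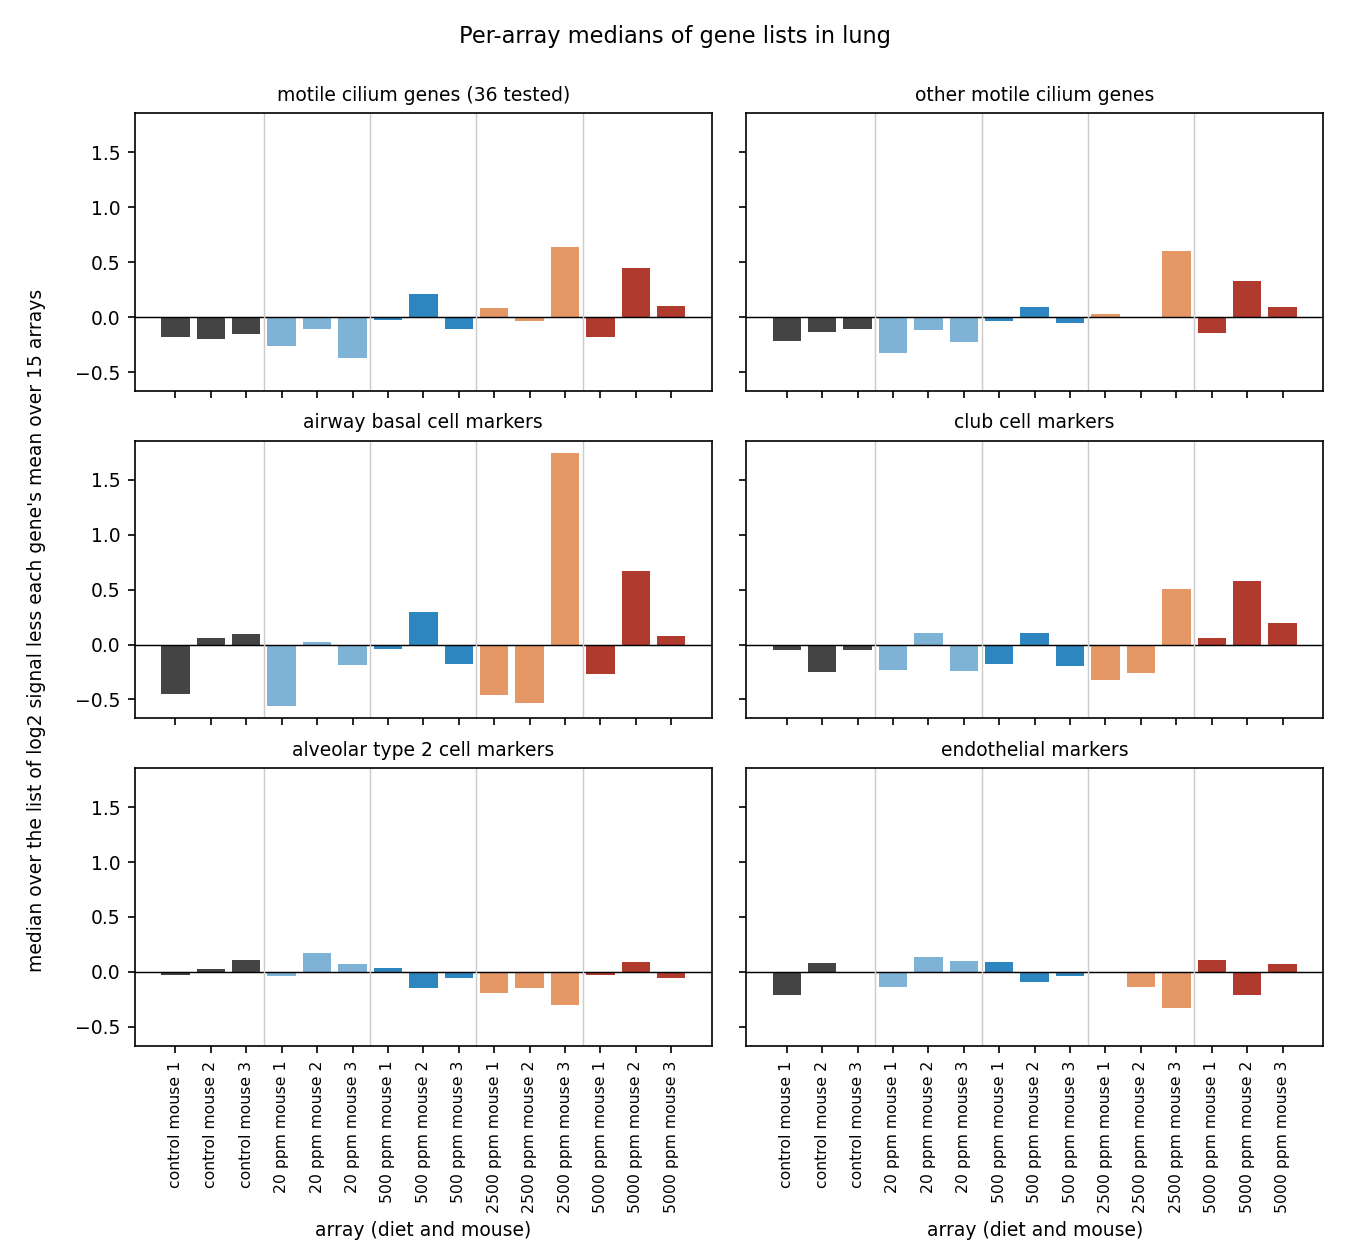
Per-array median of 6 gene lists (y axis, log2 signal less the mean of each gene over 15 arrays) in the 15 arrays ordered by diet (x axis). The motile cilium genes, the other motile cilium genes, the basal cell markers and the club cell markers have their 2 highest bars in 2500 ppm mouse 3 and 5000 ppm mouse 2, while the alveolar type 2 and endothelial markers do not.

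The 36 genes varied together across the 15 mice. The median correlation of a gene with the median of the other 35 was 0.73, and 0.73 after the mean of each diet was removed. It was above 0.5 for 29 of the 36 genes (80.6%) and above 0.8 for 16 (44.4%). Of the 34328 other genes measured on all arrays, 7.14% and 0.778% reached these marks, with a median of 0.10. The closest were Drc1 (0.94), Ccdc153 (0.94) and Cdhr3 (0.93), and the loosest were Rsph9 (0.16) and Zmynd10 (0.10). These correlations describe 15 arrays that share slides, diets and the 2 mice with high airway markers, and are given as a description.

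The genes outside the 38 with the closest course over the 15 mice included Pih1d2 (r = 0.97), Nhlrc4 (0.96), Tex26 (0.96), Cibar2 (0.96), Ccdc60 (0.96), Armc4 (0.95), Fam166b (0.95), Plin5 (0.95) and Spag6l (0.95). Their measure is Pearson's r with the median of the 36 genes over 15 arrays. Armc4 and Spag6l were on the list of other motile cilium genes, and Plin5, a lipid droplet protein, was not. Plin5 measured 0.59, 0.30 and 0.85 in controls and 1.84 and 1.68 in 2500 ppm mouse 3 and 5000 ppm mouse 2, with 500 ppm mouse 2 next at 1.39. Among marker lists the course of the 36 genes was closest to that of other motile cilium genes (r = 0.97), airway basal cells (0.82) and club cells (0.79), and least like endothelium (-0.61).

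Because these genes moved together, their promoters were searched for the X-box, the site that RFX factors bind. The motif searched on both strands was GTNNCC, then 1 to 3 bases of any kind, then GGNAAC, in the 250 bases before and 50 after each start in RefSeq (assembly GRCm38.p6). Promoters were found for 33 of the 38 genes, and 5 of the 33 (15.2%) held a match, as did 14 of 94 other motile cilium genes (14.9%) and 2.49% of all 27025 genes. The forkhead motif GTAAACA, on either strand, occurred in 3 of the 33 (9.09%), namely Ak7, Cfap43 and Sntn, and in 4.05% of all genes. These are matches of letters and not sites shown to be bound. The 5 matches are printed to show which letters met the search, which fixes their likeness, 5′ to 3′ along the gene, with the match in capitals and 8 flanking bases on each side.
Lrrc23: ttggcctcGTAACCTGGCAACtactgagc
Mns1: ttttggcgGTTGCCGGGACACagcttaaa
Pifo: gcggttccGTTCCCTTGGCAACgtagtaca
Tekt4: ccccacctGTGTCCTGGGAAACaaactcat
Zmynd10: gctccctcGTTTCCATGGCGACgacgactc
The stretches lie at chr6:124779871-124779899 (minus strand), chr9:72438536-72438564 (plus), chr3:106001496-106001525 (minus), chr17:25471422-25471451 (plus) and chr9:107547296-107547325 (plus) in GRCm38.p6. Counted from the first base of the transcript as 0, the matches begin at -164, 15, -20, -160 and 0. The Mns1 and Zmynd10 matches read on the opposite strand, that of Pifo on both.

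Lrrc23 has its match farthest upstream, and its 250 bases before the start (chr6:124779728-124779977, minus strand) are given whole, with the match in capitals, to show it in its setting.
Lrrc23 upstream: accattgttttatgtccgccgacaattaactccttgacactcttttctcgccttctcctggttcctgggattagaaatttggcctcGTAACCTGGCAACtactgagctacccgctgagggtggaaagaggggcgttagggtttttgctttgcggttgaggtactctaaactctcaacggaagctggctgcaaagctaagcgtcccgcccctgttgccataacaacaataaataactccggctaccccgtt
The values of the 5 genes with a match ranged widely. Lrrc23, Mns1 and Tekt4 differed from control at 2500 ppm by 0.64, 0.59 and 0.32, while Pifo and Zmynd10 differed by 0.12 and -0.07.

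A further list held 119 other motile cilium genes, among them inner arm dyneins and intraflagellar transport. Of these, 107 were tested and limma called 0 at every diet. At 2500 ppm their median was 0.26, with 86 of 107 above 0 (57.3% over all genes), and 28 were higher and 0 lower at an unadjusted p under 0.05 (5.52% and 2.97%). At 5000 ppm it was 0.21, with 81 above 0 (60.6%), and 13 were higher and 0 lower (3.04% and 2.10%). Several of the extreme differences rested on control mouse 1. Fank1 had the highest difference at 2500 ppm (2.85 ± 1.37) and at 5000 ppm (2.68 ± 1.37), but its probe read -7.53 in control mouse 1 against -0.45 and -0.22 in the other controls, and without that mouse it was at 0.45 and 0.28. Next at 2500 ppm were Dnah2 (0.89 ± 0.21), an inner arm dynein heavy chain, and Cfap46 (0.80 ± 0.20), a central pair protein, which were at 0.84 and 0.82 without control mouse 1. At 5000 ppm Wdr78 (0.69 ± 0.20) and Cfap45 (0.68 ± 0.21) followed, at 0.62 and 0.68 without it. The lowest at 2500 ppm were Nme9 (-0.92 ± 0.66), Dnajb13 (-0.86 ± 0.89), a spoke protein, and Ift172 (-0.84 ± 0.68), of intraflagellar transport. All 3 were high in control mouse 1, without which they were at -0.22, 0.18 and 0.01. The lowest at 5000 ppm were Dnajb13 (-0.94 ± 0.89), Spag8 (-0.76 ± 0.55) and Cfap73 (-0.56 ± 0.33), at 0.10, -0.68 and -0.70 without that mouse. Dnajb13 and Spag8 were well above background on 7 of 15 arrays.

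Genes listed for the program that makes multiciliated cells, from Mcidas, Gmnc and Ccno to E2f4, Tfdp1 and Rfx1, had medians close to that of all genes. Signal of these genes from other cells of the lung was not separated. Their 20 tested genes had medians of 0.06 at 2500 ppm and -0.02 at 5000 ppm (0.05 and 0.07 for all genes), and limma called 0 of them. At an unadjusted p under 0.05, 1 was higher and 1 lower at 2500 ppm (5.52% and 2.97% of all genes). At 5000 ppm 0 were higher and 2 lower (3.04% and 2.1%). Gmnc, which encodes a geminin-like activator of this program, had the lowest differences, -0.83 and -1.12, neither of them called. The values of Gmnc in single mice are not given here. Mcidas, its relative, had the highest at 2500 ppm, 0.48.

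Probes of 1 gene did not always agree. For 11 of the 36 genes a total of 15 further probes passed the filter. Only 5 of the 15 correlated above 0.5 with the probe that stood for the gene and 2 were below 0, with a median of 0.41. In the comparison of the high with the low diets 10 of the 15 had the sign of the main probe. A further probe of Hydin, Pifo, Rsph9, Spag16 and Tppp3 had the opposite sign. The second probe of Tppp3 read 2.97 and 3.30 in control mouse 1 and 20 ppm mouse 1, and -0.02 to 2.03 elsewhere. That of Rsph9 read -0.50 and -0.65 in these mice and -0.60 in 500 ppm mouse 3, and at most -1.94 elsewhere. For Pifo both probes were high in control mouse 1 and 20 ppm mouse 1, where the main probe read -0.33 and -0.41, and -0.48 in 2500 ppm mouse 3. Dim second probes of other genes were high in 500 ppm mouse 3, such as that of Ccdc40 with -1.93 against a median of -4.37 elsewhere.

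**Figure D5:**
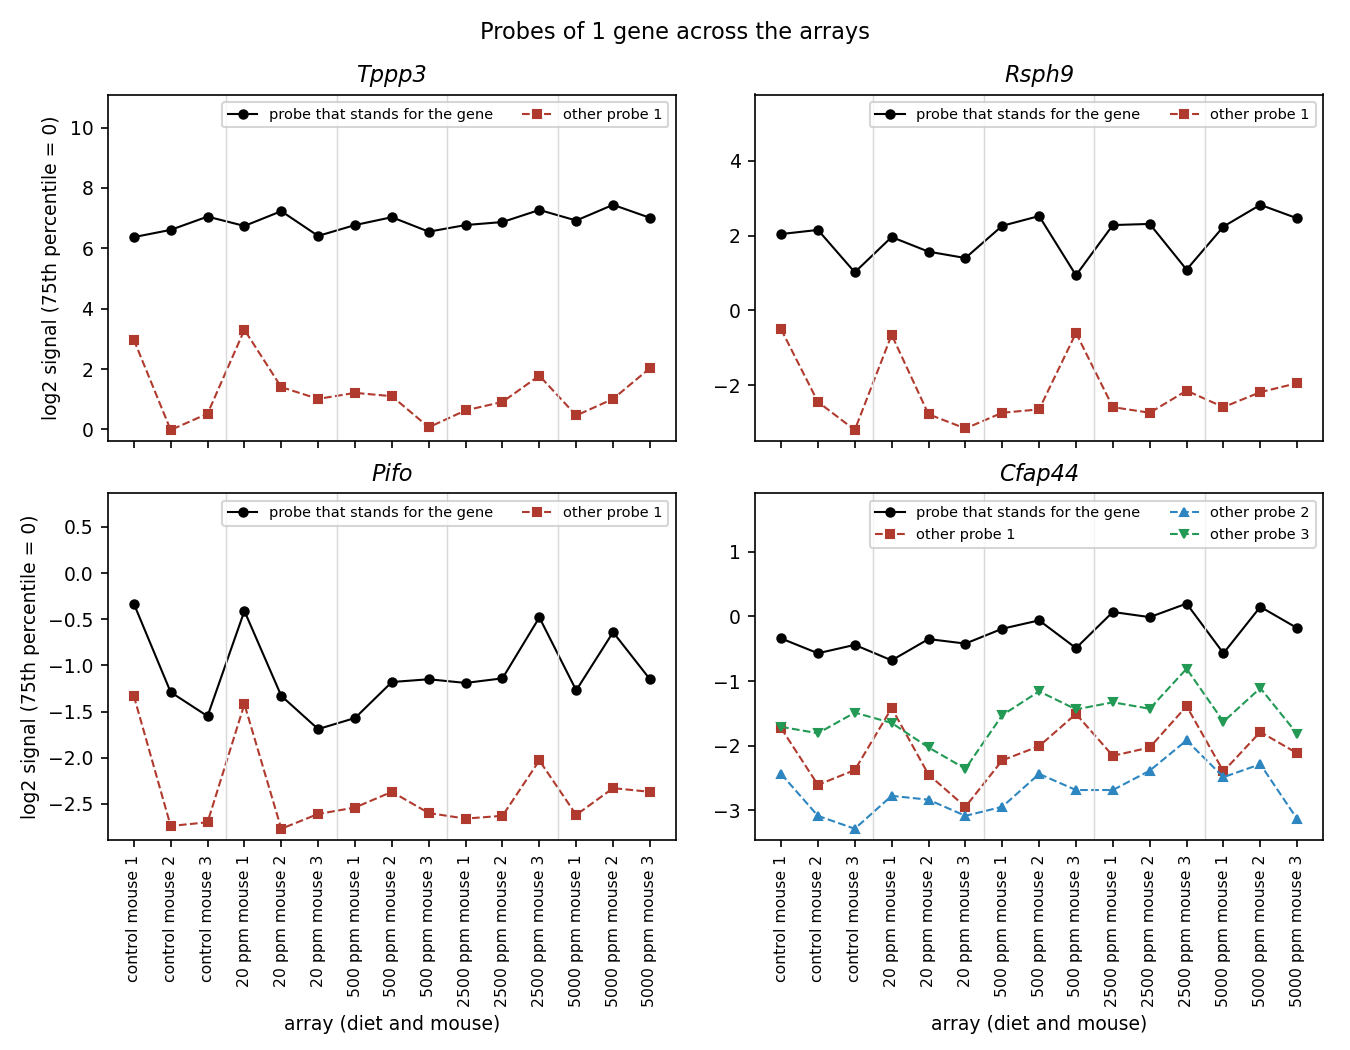
Log2 signal relative to the 75th percentile of the array (y axis) of every probe of Tppp3, Rsph9, Pifo and Cfap44 that passed the filter, across the 15 arrays ordered by diet (x axis). Black circles are the probe that stands for the gene and coloured symbols the other probes. The second probes of Tppp3, Rsph9 and Pifo peak in control mouse 1 and 20 ppm mouse 1, where that of Tppp3 reads 2.97 and 3.30, and that of Rsph9 also in 500 ppm mouse 3.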

How the data were processed

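Lung RNA of 15 mice was measured on Agilent 1-colour arrays, 1 mouse per array. Spot intensities were extracted by the authors with Agilent Feature Extraction 10.7.3.1, per the file headers, which store a background-subtracted processed signal per spot, and the authors also deposited a log2 table. That log2 table matched the processed signal of each array up to 1 constant per array. The array number limits the precision.

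From the processed signals, outlier spots were left out (0.227%), spots of a probe were averaged, and log2 values were scaled to the 75th percentile of each array. Probes well above background in at least 50% of their spots on all 3 arrays of any diet were kept (43154 of 56605). Symbols came from RefSeq accessions (21930 probes had none), and the probe with the highest mean over 15 arrays stood for a gene. One limma fit (limma 3.58.1, R 4.3.3) with a coefficient per diet covered 34401 genes with 10 residual degrees of freedom, eBayes and Benjamini-Hochberg adjustment, and was tested on simulated data.

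The 38 genes and all gene lists were chosen with earlier results of these data known. Values are given for every mouse for Foxj1, Rfx2 and Rfx3, for the 3 highest and 3 lowest differences at 2500 ppm, at 5000 ppm and for both against the 2 lowest diets, for the most and least variable gene, and for Ccdc39, whose values were added after they were seen. Deviations of like-numbered mice correlated at 0.61, 0.26 and 0.16 between the control and 20 ppm diets, where unlike-numbered mice 2 and 3 reached 0.37 and 0.38, and at 0.38, 0.29 and 0.47 between 500 and 2500 ppm. For other diets they did not all exceed 0.1, and no label says what a number stands for. Alternatives changed the scale, background, filter, probe rule, slide and replicate blocks, weights and the arrays included. Of the 10 genes most like the 36, 1 is not reported here.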

Additional observations from a re-analysis of the deposited data

How the results depend on the processing

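No motile cilium gene was called in the main analysis, and none without any 1 array, with the replicate block (replicate number as a block, smallest adjusted p 0.149), with the array median, quantile or normexp scaling, or with other filters. The blocked fit called 0 of the 36 and changed no other call. Calls appeared in 4 settings. With array weights there was 1 at 5000 ppm against control (0.276% of all genes), 1 at 5000 against 2500 ppm (1.62%), 3 for the 2 highest against the 2 lowest diets (2.96%), 2 for the trend (1.63%) and 1 in the F test (1.65%). With slide as a fixed block there were 2 at 5000 ppm, 2 for the highest against the lowest diets and 2 for the trend, among 14.4%, 15.7% and 16% of all genes. That block rests on 500 ppm mouse 3 and moved the median of the 36 to 0.59 at 2500 ppm, 0.57 at 5000 ppm and 0.19 per rank. Without the arrays of extraction status 1 there was 1 call at 5000 ppm (0.0959% of all genes) and 1 for the trend (0.369%). Without the 4 arrays apart on the principal components, a setting chosen after seeing the data, there was 1 at 5000 against 2500 ppm (2.74%) and 1 for the trend (0.355%). The array median scale turned the median of 500 against 20 ppm to -0.02, and that of all genes fell with it. Without any 1 array the median was 0.18 to 0.45 at 2500 ppm and 0.08 to 0.42 at 5000 ppm, lowest without 2500 ppm mouse 3 and 5000 ppm mouse 2. It was 0.30 to 0.47 for the highest against the lowest diets and -0.26 to 0.14 for 5000 against 2500 ppm.

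Many small differences changed sign between settings. At 5000 ppm 30 of 36 were above 0 over all arrays. Without 2500 ppm mouse 3 and 5000 ppm mouse 2, which were picked for their high signals, 22 were. Among the genes the naming rule picked, in the comparisons it picked them for, the sign changed for 6. At 2500 ppm Zmynd10 was 0.08 with weights, 0.38 without control mouse 1 and 20 ppm mouse 1 and 0.09 without the 4 arrays, and -0.35 to 0.38 without any 1 array. At 5000 ppm these were 0.21, 0.33, 0.33 and -0.35 to 0.33, and for the highest against the lowest diets 0.03, 0.23, 0.09 and -0.30 to 0.07. Ak7 became 0.08, 0.27, 0.14 and -0.13 to 0.16 in that comparison, and 0.09 with normexp. Foxj1 at 5000 ppm was 0.14, 0.22, 0.22 and -0.25 to 0.22, and 0.12 with the fixed slide block. Foxj1 was -0.07 at 2500 ppm and -0.04 for the highest against the lowest diets without the status 1 arrays, -0.07 and -0.10 without 2500 ppm mouse 3 and 5000 ppm mouse 2, and -0.07 to 0.49 and -0.04 to 0.24 without any 1 array. Rfx3 was -0.02 for the highest against the lowest diets without the 4 arrays, and at 5000 ppm -0.03 without them, -0.03 without control mouse 1 and 20 ppm mouse 1 and -0.03 to 0.25 without any 1 array. Hydin was 0.11 with the mean of its probes and 0.04 with the fixed slide block for the highest against the lowest diets. At 2500 ppm it was 0.20 and 0.12 with these, 0.01 with a random slide block, 0.00 with quantile scaling and -0.37 to 0.14 without any 1 array. Rsph4a at 2500 ppm was 0.07 without the 4 arrays, without the status 1 arrays and without 2500 ppm mouse 3 and 5000 ppm mouse 2, 0.06 with weights, 0.08 and 0.00 with the fixed and random slide blocks, and -0.12 to 0.07 without any 1 array. The cause was not tested.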

Other observations

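Of the 16 club and secretory cell markers, 9 had their highest signal of the 15 mice in 2500 ppm mouse 3, and 1, Hp, had its lowest there (7.16). Those with a wide range were chosen for description after their values were seen. Bpifa1, a secreted airway defence protein, measured 6.54 in 2500 ppm mouse 3, 4.62 in 5000 ppm mouse 2 and 4.51 in 500 ppm mouse 2, and at most 1.66 in the other 12 mice. Scgb3a1, a secretoglobin of the larger airways, measured 9.50, 8.30 and 8.18 in these 3 mice. Reg3g, an antimicrobial lectin, measured 5.60, 4.95 and 4.02. Muc5b, an airway mucin, measured 4.50, 4.21 and 3.60, and 3.48 in control mouse 3. By diet, none of the 16 club cell markers was called by limma at 2500 or 5000 ppm (0% and 0.0407% of all genes). At an unadjusted p under 0.05, 1 and 2 were higher (5.52% and 3.04%).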
